A study of Drosophila melanogaster with 65 samples.

Results

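The 3 yolk protein genes of Drosophila melanogaster, Yp1, Yp2 and Yp3, and yl, the gene of the yolk receptor Yolkless, were followed through 24 long RNA libraries. They were taken by name from tables that each list 16369 genes. All 4 were listed for every library, although Yp1 had no reads in some OSS libraries. All 4 passed the filter on low counts in the main fit of every comparison made here. The libraries came from whole ovaries and from OSS cells, a cultured line of somatic cells from the fly ovary. OSS cells had been given siRNA against GFP (siGFP, the control), Piwi (siPiwi), Traffic jam (siTj) or Cubitus interruptus (siCi), with 3 libraries each. Ovaries came from 6 fly lines, which the labels call FITS, FPSE1, FPSE2A, FPSE2B, FlamBG and FlamKG, each with 1 mutant and 1 wild-type library. According to the series text new promoter deletions were made at flamenco, a locus that gives rise to piRNAs; the allele of each line, the age of the flies and the number of ovaries pooled are not given in the sources used here. Whether replicate libraries stand for separate cultures or animals is not said either, and the spread that the p-values rest on is that of these libraries and may be technical.

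Yolk proteins are the main nutrient store of the insect egg. In Drosophila the fat body secretes them into the hemolymph, the follicle cells that surround the oocyte make them as well, and the oocyte takes them up by clathrin-mediated endocytosis. Yolkless, a member of the LDL receptor family made in the germline, binds them at the oocyte surface, and its vesicles pass through early endosomes on the way to yolk granules. In the fat body, transcription of the yolk protein genes depends on the female form of Doublesex and on ecdysone and juvenile hormone.

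All 4 genes lie on the X chromosome. On dm6 (Release 6), Yp2 spans X:10050951-10052634 on the minus strand and Yp1 X:10053811-10055498 on the plus strand, so that the pair is transcribed away from each other from starts 1176 bases apart. Yp3 spans X:13759546-13761547 and yl X:14193214-14199958, both on the plus strand. Their exons add up to 1621 bases in Yp1, 1626 in Yp2, 1878 in Yp3 and 6361 in yl. CR45601, annotated on the opposite strand of Yp1, is the only other gene in the tables that overlaps a member, and the deposited counts keep the strands apart.

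Unique sense reads in genes numbered 9676965 to 81892058 per ovary library and 9075806 to 54359738 per OSS library. Levels below are in CPM, counts scaled to a common library size after TMM normalization. The knocked-down genes were lower in each of their 3 libraries than in any siGFP library. For tj this was 218 to 594 CPM against 1105 to 2031. For piwi it was 34.2 to 118 against 661 to 902, and for ci 41.9 to 72.4 against 116 to 182. After siTj, piwi was also below every siGFP library, at 120 to 313 CPM. In siPiwi libraries 1, 2 and 3 tj was at 1600, 372 and 839 CPM. The siTj and siPiwi groups thus differ by less than their names say. In ovaries the flam transcript was lower in the mutant in 5 of 6 lines, with 7.01 against 54.9 CPM in FlamKG, 12.2 against 122 in FPSE1, 51.2 against 196 in FlamBG, 68.2 against 123 in FITS and 101 against 132 in FPSE2B. In FPSE2A it was at 88.3 CPM in the mutant and 71.4 in the wild type. Antisense reads made up 12.36% of reads in siPiwi 2 and 9.27% in siTj 2, against 4.07% to 5.08% in the other OSS libraries. The tissue labels were checked against markers: chorion genes summed to 3611 to 18857 CPM in 10 ovary libraries but to 3.31 and 3.67 CPM in the FlamBG and FlamKG mutants, while OSS cells held somatic gonad genes at 1465 to 4677 CPM and 10 germline genes at 15.9 to 97.8 CPM in sum.

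In wild-type ovaries Yp2 was the most abundant of the yolk RNAs. Yp2 ranged from 1275 to 7099 CPM over the 6 wild-type libraries with a median of 3610.1, Yp3 from 390 to 1778 with a median of 981, and Yp1 from 177 to 985 with a median of 587. The receptor gene yl ranged from 1399 to 2741 CPM with a median of 2076. Its highest library was 1.96 times its lowest, against 4.56 to 5.57 times for the yolk protein genes. FITS had the highest wild-type level of each yolk protein gene and FlamBG the lowest, whereas yl was highest in FlamKG and lowest in FPSE2B. Scaled to exon length, Yp2 stood at 2157 ± 1304 CPM per kb (SD, n = 6), Yp3 at 551 ± 254, Yp1 at 341 ± 177 and yl at 334 ± 73.5. On this scale the levels of Yp1 and yl differed by less than their spread over the lines, and those of Yp3 and Yp1 overlapped.

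The FlamBG and FlamKG mutants had more yolk protein RNA and less receptor RNA than their wild types. In FlamBG, Yp3 was at 5500 CPM in the mutant and 390 in the wild type, and in FlamKG at 12716 and 1327. Yp1 was at 1416 and 177 CPM in FlamBG and at 5431 and 618 in FlamKG. Yp2 was at 4545 and 1275 CPM in FlamBG and at 9833 and 3902 in FlamKG. Both mutants thus exceeded the other 10 ovary libraries in Yp1 and in Yp3, while for Yp2 the FlamBG mutant lay below the FITS libraries. Over all genes tested, 19.3% had both Flam mutants above the other 10 libraries and 18.7% had both below.

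For yl the same mutants were the lowest of the 12 ovary libraries. It was at 552 CPM in the FlamBG mutant and 1941 in its wild type, which is 28.4% of the wild-type level. In FlamKG it was at 418 and 2741 CPM, or 15.3%. The other 10 libraries all held more than these mutants, so the groups did not overlap. In bulk ovaries, fewer cells of a type and less RNA per cell cannot be told apart. With 1 library per genotype and line there was no replicate within a line.

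**Figure D1:**
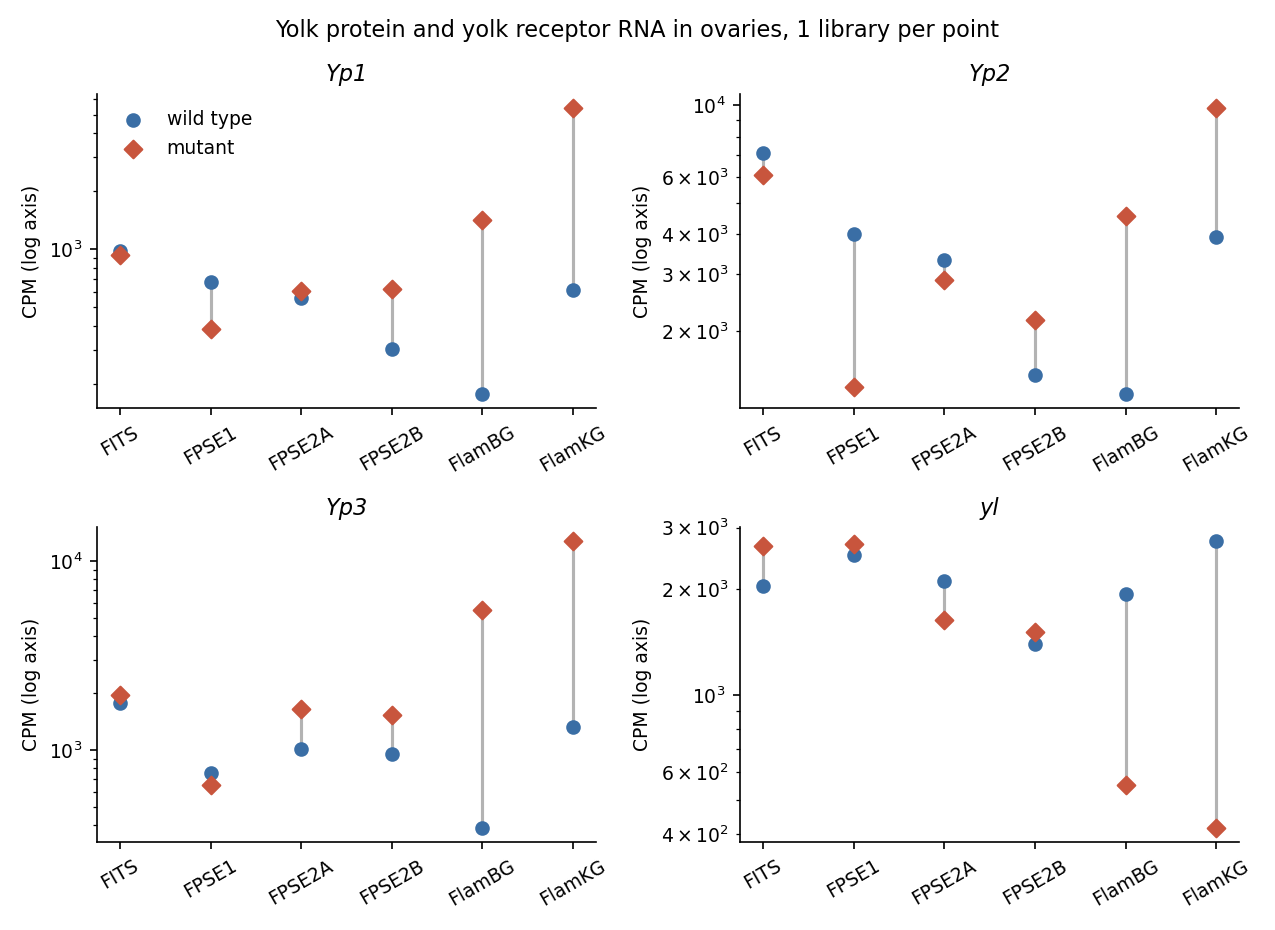
Levels of Yp1, Yp2, Yp3 and yl in CPM on a log axis in 12 ovary libraries, with wild type (circles) and mutant (diamonds) of each fly line joined by a line and 1 library per point. In FlamBG and FlamKG the mutant lies above the wild type for the yolk protein genes and below it for yl, while the other lines show smaller differences of mixed direction.

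A fit in edgeR with the line as a block, and with 1 mutant effect for the Flam-named lines and another for FITS and the FPSE lines, called all 4 members in the Flam-named lines (quasi-likelihood F test, adjusted p from Benjamini-Hochberg over 11155 genes). On the log2 scale Yp3 rose by 3.54 (SE 0.31, adjusted p = 0.000699), Yp1 by 3.07 (SE 0.42, 0.00186) and Yp2 by 1.58 (SE 0.46, 0.0236). The receptor gene yl fell by 2.26 (SE 0.29, adjusted p = 0.00164). Calls were frequent in this comparison: 55.5% of the genes tested were called, 24.1% higher and 31.4% lower, so a call by itself does not set the members apart. The call of Yp2 was lost without FlamBG (log2 fold change 1.33, adjusted p = 0.159), without FlamKG (1.83, 0.0759), without the line block (1.47, 0.213) and with DESeq2 (1.72, 0.119).

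In FITS and the FPSE lines no member passed the test, and 0% of genes were called (0 of 11155 in edgeR, with 610 at an unadjusted p under 0.05, and 46 called by DESeq2). Yp1 was at 384 CPM in the FPSE1 mutant against 678 in its wild type, at 625.1 against 303 in FPSE2B, at 609 against 557 in FPSE2A and at 938 against 985 in FITS. Yp2 was at 1345 against 3989 CPM in FPSE1, 2164 against 1463 in FPSE2B, 2876 against 3318 in FPSE2A and 6078 against 7099 in FITS. Both genes were thus lower in the FPSE1 mutant and higher in the FPSE2B mutant, and in FITS the mutant held 95.2% and 85.6% of the wild-type level. Yp3 was at 656 against 756 CPM in FPSE1, 1531 against 955 in FPSE2B, 1655 against 1008 in FPSE2A and 1954 against 1778 in FITS. The receptor gene yl was at 2687 against 2509, 1508 against 1399, 1629 against 2109 and 2652 against 2042 CPM in the same order. For yl the mutant held 77.2% to 130% of the wild-type level in these lines. The log2 fold changes were 0.07 for Yp1 (SE 0.28), −0.35 for Yp2 (SE 0.33), 0.33 for Yp3 (SE 0.20) and 0.05 for yl (SE 0.20), with adjusted p in edgeR of 0.838 to 0.962. The FPSE1 mutant combined a flam level of 12.2 CPM with yolk protein genes below its wild type, while the FlamKG mutant combined 7.01 CPM of flam with yolk protein genes above it. These are single libraries, and the part of flam in the yolk gene levels was not tested.

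The mutant effect was then compared between the line groups in the same fit. The difference, Flam-named lines minus FITS and FPSE lines, was 3.0 on the log2 scale for Yp1 (SE 0.49, adjusted p in edgeR of 0.00549), 1.93 for Yp2 (SE 0.56, 0.0318), 3.21 for Yp3 (SE 0.36, 0.00236) and −2.32 for yl (SE 0.35, 0.00435). In this comparison 42.0% of genes were called, 18.6% with a positive and 23.4% with a negative difference. The difference for Yp1 was 3.09 without the line block, at an adjusted p of 0.0522. For Yp2 it lost its call under 6 alternatives, with values of 1.68 to 2.18.

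A single mutant effect over all 6 lines called 0% of genes (0 of 11155 in edgeR, with 1242 at an unadjusted p under 0.05, and 333 called by DESeq2). The mutant was higher in 4 of 6 lines for Yp1, 3 of 6 for Yp2, 5 of 6 for Yp3 and 3 of 6 for yl. Mean log2 ratios over the lines were 1.07 ± 1.66 for Yp1, 0.29 ± 1.23 for Yp2, 1.40 ± 1.70 for Yp3 and −0.72 ± 1.25 for yl (SD, n = 6). Two-sided exact sign-flip permutation tests over the 6 lines gave p = 0.188, 0.562, 0.094 and 0.375, where the smallest p such a test can give is 0.03125. The spread over lines was larger than each mean.

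The makeup of the yolk protein RNA differed as well. Of the summed level per kb of exon, Yp2 made up 56.4% to 74.9% in the wild types (mean 69.2% ± 6.67, SD, n = 6), Yp3 12.3% to 31.9% (19.6% ± 6.63) and Yp1 9.92% to 12.8% (11.2% ± 1.06). In the FlamBG mutant the shares were 42.4% Yp2, 44.4% Yp3 and 13.2% Yp1, and in the FlamKG mutant 37.4%, 41.9% and 20.7%. Yp3 thus matched or passed Yp2 in both, with a ratio of Yp3 to Yp2 per kb of 1.05 and 1.12 against 0.164 to 0.613 in the other 10 libraries. The mutants of FITS and the FPSE lines held 52.6% to 69.8% Yp2 and 19.4% to 32.2% Yp3. These shares are given as a description, with no test. Together the yolk protein genes took 1.17% and 2.27% of all sense reads in genes in the FlamBG and FlamKG mutants, against 0.15% and 0.582% in their wild types.

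**Figure D2:**
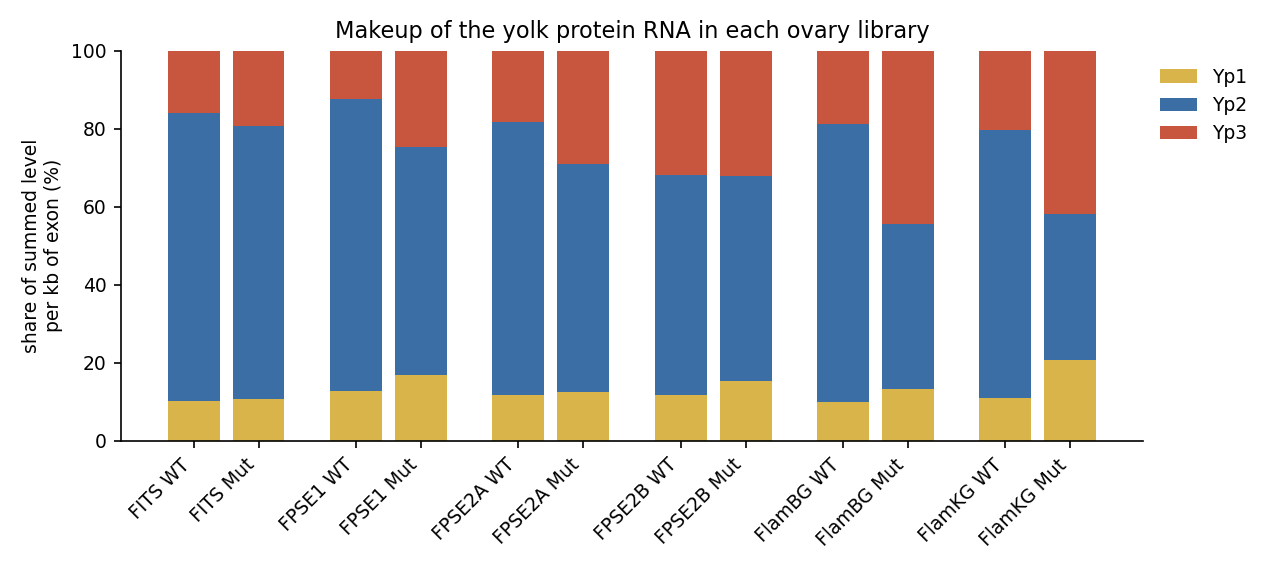
Share of Yp1, Yp2 and Yp3 in their summed level per kb of exon, in percent, for each ovary library (WT, wild type; Mut, mutant; 1 library per bar). Yp2 takes at least 52.6% of each bar except in the FlamBG and FlamKG mutants, where Yp3 takes 44.4% and 41.9%.

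Of 16 genes that act in yolk uptake, 5 fell and 0 rose in the Flam-named lines, with a median log2 fold change of −0.24 against −0.17 over all genes. The count of 5 is near the share of all genes called lower, 31.4%, and so is not a result about uptake genes. Sec6, a subunit of the exocyst that delivers the receptor to the membrane, fell by 0.95 (SE 0.22, adjusted p = 0.0102), and boca, a chaperone of LDL receptor family proteins, fell by 0.88 (SE 0.27, 0.0265). AP-2mu, of the clathrin adaptor, and Rbsn-5, of early endosome fusion, fell by 0.88 and 0.82 (adjusted p in edgeR of 0.00714 and 0.0099). The clathrin heavy chain gene Chc, named after its values were seen, was at 648 and 869 CPM in the FlamBG and FlamKG mutants and 609 and 774 in their wild types, and did not pass the test (0.13, SE 0.18).

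Of 13 regulators tied to yolk protein genes, 3 rose and 4 fell, with a median of −0.26 against −0.17 over all genes. Both counts are near the shares of all genes called higher and lower, 24.1% and 31.4%, and are not a result about this list. dsx, the sex determination gene whose female product activates yolk protein genes in the fat body, rose by 2.70 (SE 0.47, adjusted p = 0.00365), from 23.0 to 80.4 CPM in FlamBG and from 16.1 to 190 in FlamKG. gce, which encodes a juvenile hormone receptor, rose by 1.01 (SE 0.22, 0.00835). Aef1, a repressor of fat body enhancers, fell by 1.26 (SE 0.18, 0.00211), and usp, the partner of the ecdysone receptor, fell by 0.78 (SE 0.21, 0.0166). The counts do not tell the female from the male splice form of dsx.

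Among 9 lipoprotein and LDL receptor family genes, 6 rose and 2 fell, with a median of 1.36. Rfabg, the lipophorin precursor gene of the fat body, was at 8116 and 11369 CPM in the FlamBG and FlamKG mutants and at 125 and 187 in their wild types (5.97, SE 0.46, adjusted p = 0.00051). Apoltp, of the lipid transfer particle, rose by 4.85 (SE 0.31, 0.000395), cv-d, a vitellogenin-like lipoprotein, by 4.52 (SE 0.44, 0.000872) and the lipophorin receptor gene LpR1 by 1.57 (SE 0.26, 0.00304).

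Eggshell genes fell in every case. All 12 vitelline membrane genes were called lower, with a median of −7.63, or −7.13 when no library was taken below a floor of 3 counts, and all 9 chorion genes, with a median of −11.26, or −11.27 with the floor. The chorion genes Cp38 and Cp36 were at 0.398 and 0.132 CPM in the FlamBG mutant and at 1027 and 494 in its wild type. In FlamKG they were at 0.157 and 0.245 against 8539.9 and 3599.5 CPM. Cp16 and Cp19 were at 0.199 CPM or less in these mutants and at 371 to 1071 in their wild types. In the vitelline membrane and eggshell list, Vm26Ac had 0 reads in both mutants and 4.96 and 23.9 CPM in the wild types. Vm32E, yellow-g2 and Femcoat were at 0.398 CPM or less in the mutants and at 14.6 to 431 in the wild types.

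Markers of other cells moved with the yolk genes. The 7 fat body markers summed to 11535 and 12930 CPM in the FlamBG and FlamKG mutants and to 126 to 1054 CPM in the other 10 libraries. Of these, 3 were called higher and 0 lower: Rfabg, which is also in the lipoprotein list, Lsp2 (1341 and 1239 CPM, against 0.13 to 9.4 in the other 10) and Lsp1beta (638 and 305 CPM, against 0.254 to 10.8). Rfabg alone held 8116 and 11369 CPM of the sums. Of the 4 not called, Fbp1 was at 523 CPM in the FlamBG mutant and 0 in its wild type, but at 3.06 against 19.6 in FlamKG, and Fbp2 was at 0.787 against 3.10 in FlamKG. The list's median log2 ratio was 9.9 in FlamBG and 1.21 in FlamKG. The markers at 0 reads were Lsp1gamma and Fbp1 in the FlamBG wild type and Fbp2 in the FPSE1 mutant. The 10 muscle markers summed to 8520 and 5650 CPM, against 649 to 5059, and all 10 were called higher, with Act88F at 0 in the FlamBG wild type. The 10 germline markers summed to 1782 and 791 CPM, against 2294 to 6166, with 7 called lower and 0 higher, and none was at 0 in any ovary library. The 6 somatic gonad markers summed to 340 and 614 CPM, against 465.996 to 1154, with 2 called higher and 3 lower, so that the FlamKG mutant lay within the range of the other 10. Over all genes tested in the Flam-named lines, 24.1% were called higher and 31.4% lower. A few calls in a marker list thus do not by themselves set that list apart. The part of the cells that these genes mark in the yolk gene results was not tested. In FITS and the FPSE lines no gene of any of these lists was called.

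**Figure D3:**
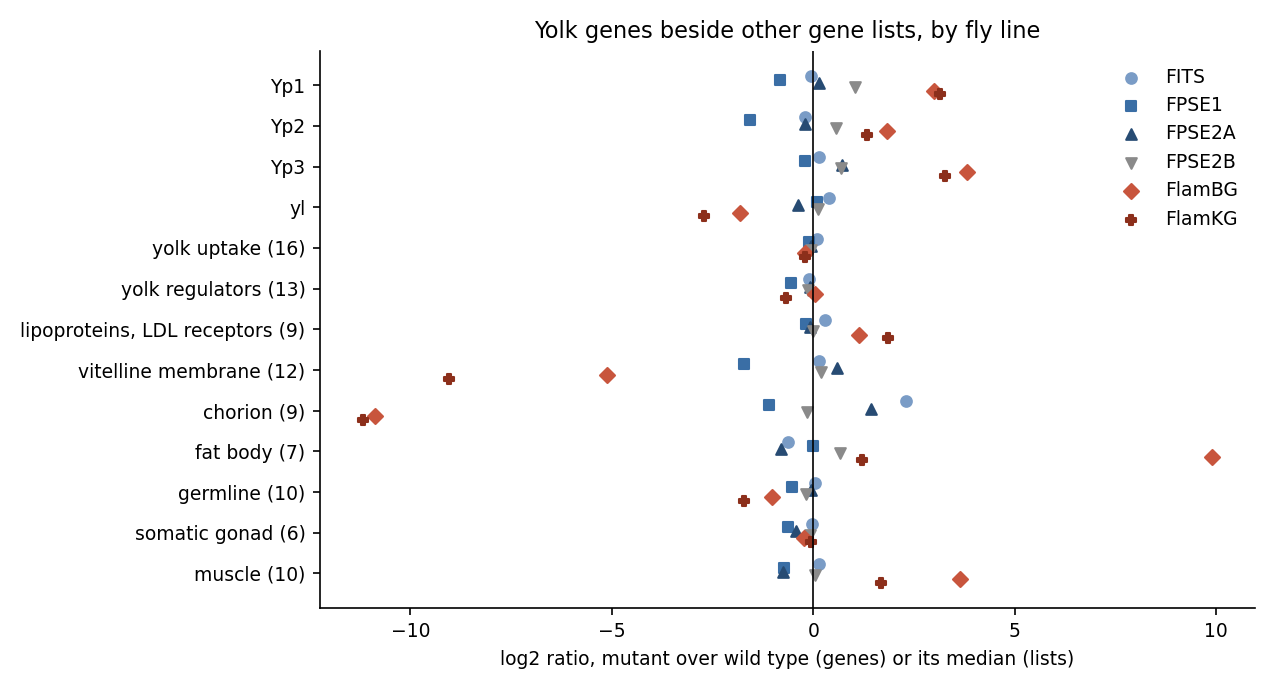
Log2 ratio of mutant over wild type in each of 6 fly lines for the 4 members, and the median log2 ratio over each gene list (number of genes in brackets), with each library taken at no less than 3 counts for the list medians. FlamBG and FlamKG stand to the right for Yp1, Yp2, Yp3 and the fat body, muscle and lipoprotein lists. They stand to the left for yl and the vitelline membrane, chorion and germline lists.

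In FITS and the FPSE lines the list medians lay between −0.47 and 0.37. Cp38, of the chorion, was at 3039 ± 2101 CPM in the mutants and 2027 ± 1312 in the wild types (SD, n = 4), and the vitelline membrane gene Vm26Aa at 1267 ± 650 and 1215 ± 600. Chc was at 747 ± 202 and 819 ± 203 CPM, Rfabg at 423 ± 154 and 426 ± 416, and EcR, the ecdysone receptor gene, at 167 ± 18.9 and 217 ± 38.4. Each of these differed by less than the spread over the lines or missed the threshold.

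OSS cells held little yolk protein RNA and a moderate level of yl. Yp1 had 0 reads in 6 of the 12 OSS libraries and between 1 and 54 in the others, with 54 in siPiwi 2, 31 in siGFP 2 and 22 in siTj 2. Yp2 had 3 to 114 reads, with the most in siPiwi 2 (5.37 CPM), siGFP 2 (1.80) and siTj 2 (2.17). The libraries numbered 2 of these 3 groups were the highest of their groups for Yp1 and for Yp2. The siPiwi 2 and siTj 2 libraries also held the 7 fat body markers at 25.96 and 22.8 CPM in sum, against 0 to 3.04 in the other 10, and the 9 chorion genes at 14.3 and 11.8 CPM, against 0.225 to 2.87. The part of this in the levels of Yp1 and Yp2 was not tested. At levels this low no fold between knockdowns is given for Yp1 and Yp2, and neither passed the test in any comparison.

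yl was the member that OSS cells expressed most. It was at 52.7, 60.4 and 38.3 CPM in the siGFP libraries 1, 2 and 3, and at 27.3, 35.3 and 22.3 after siTj. The siTj libraries all lay below the siGFP libraries, which held for 6.5% of the genes tested. After siPiwi yl was at 52.4, 74.4 and 45.9 CPM and after siCi at 55.2, 71.9 and 34.5. Means ran from 57.6 ± 14.9 CPM in siPiwi through 53.9 ± 18.7 in siCi and 50.5 ± 11.3 in siGFP to 28.3 ± 6.53 in siTj (SD, n = 3). The siPiwi, siCi and siGFP means differed by less than 1 SD, and the highest siTj library passed the lowest siCi library, although siTj was below siCi and below siPiwi in 3 of 3 replicate numbers. The counts by replicate number share the siTj libraries and were not made over all genes.

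The difference after siTj did not pass the test. For yl it was −0.83 on the log2 scale (SE 0.36, adjusted p = 0.638 in edgeR), in a comparison where 0.0466% of 10724 genes were called, all 5 of them lower. The siTj libraries were lower in 3 of 3 replicate numbers, a count that was not made over all genes and is not a test. With the replicate number as a block, a fit that called 3.52% of genes, the value was −0.84 (SE 0.21, adjusted p = 0.0543). Against siPiwi the value for siTj was −1.02 (SE 0.36, adjusted p = 0.905) and against siCi −0.93 (SE 0.36, 0.815), in comparisons that called 0% (353 genes at an unadjusted p under 0.05, and 79 called by DESeq2) and 0.00932% of genes. With the replicate block these were −1.02 (adjusted p = 0.0570) and −0.90 (0.0664), in fits that called 0.681% and 1.45% of genes. For siPiwi and siCi against siGFP the values were 0.19 and 0.09 (SE 0.36 each), with 0% of genes called in edgeR, 63 and 83 at an unadjusted p under 0.05, and 2 and 0 called by DESeq2.

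Scaled to exon length, Yp3 had the highest mean of the yolk protein genes in siGFP (1.54 CPM per kb), siPiwi (1.51) and siCi (2.26), and Yp2 in siTj (0.799, against 0.552 for Yp3). In CPM, Yp3 was at 0.866, 2.73 and 5.11 CPM in siGFP and at 0.456, 2.03 and 0.627 after siTj, so that the groups overlapped. After siPiwi it was at 1.26, 4.85 and 2.38 CPM and after siCi at 3.04, 2.37 and 7.35. Yp3 had 7, 158 and 203 sense reads in siGFP and 8, 69 and 9 after siTj, so depth limits its values. Group means ran from 4.25 ± 2.70 CPM in siCi through 2.90 ± 2.13 in siGFP and 2.83 ± 1.84 in siPiwi to 1.04 ± 0.861 in siTj (SD, n = 3). Within replicate numbers siTj was below siGFP, siPiwi and siCi in 3 of 3 each. These counts share the siTj libraries, were not made over all genes and are not a test. The siTj value was −1.48 against siGFP (SE 0.95, adjusted p = 0.782 in edgeR), −2.53 without siTj 2, −2.14 without siGFP 1 and −0.99 without siGFP 3. With the replicate block siTj was at −1.41 against siGFP (adjusted p = 0.332), −1.44 against siPiwi (0.670) and −2.20 against siCi (0.202). In CPM, neighbours in this order differed by less than the spread between libraries.

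**Figure D4:**
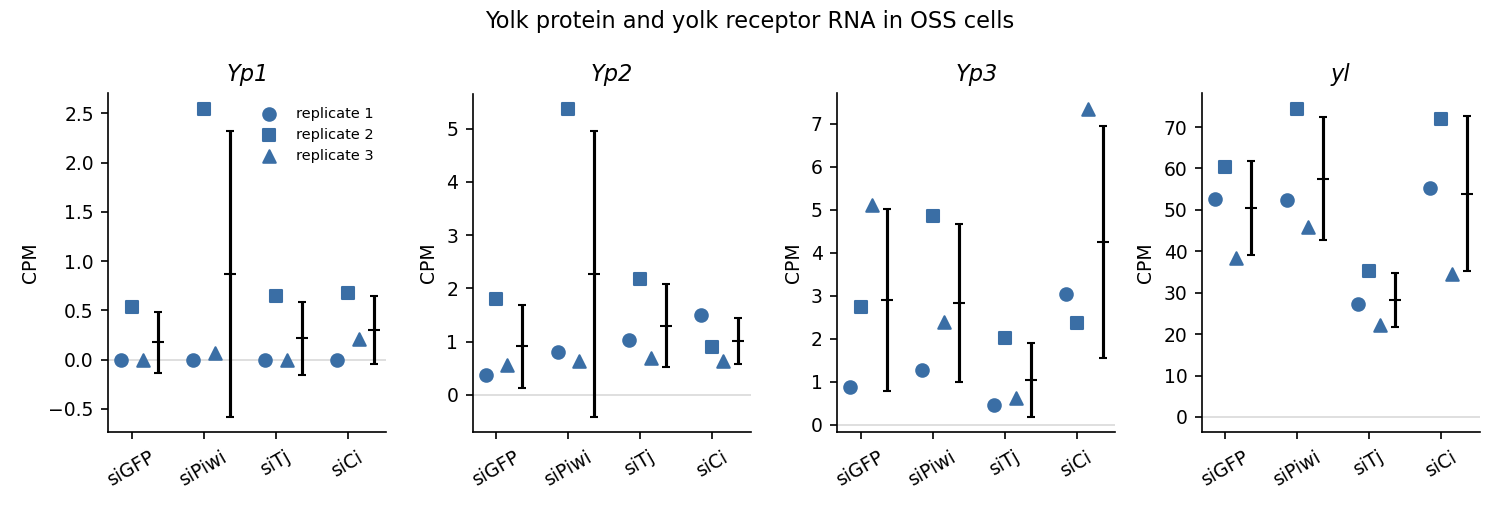
Levels of Yp1, Yp2, Yp3 and yl in CPM in 12 OSS libraries by knockdown, with the shape of a point giving its replicate number and bars giving the mean ± SD (n = 3). The siTj libraries of yl lie at 22.3 to 35.3 CPM, below the siGFP libraries at 38.3 to 60.4, and the replicate 2 library of siPiwi stands highest for Yp1 and Yp2.

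In the yolk uptake, regulator, lipoprotein and eggshell lists, siTj against siGFP called 1 gene, the eggshell gene dec-1, at 91.8 ± 42.2 against 601 ± 109 CPM (SD, n = 3; log2 fold change −2.71, SE 0.39, adjusted p = 0.0431 in edgeR). Of the yolk uptake genes 0 of 16 were called, with a median of 0.01 against 0.08 over all genes, and Chc was at 908 ± 258 and 870 ± 192 CPM. Of the regulators 0 of 13 were called, with tai, a coactivator of the ecdysone receptor, at 485 ± 106 and 327 ± 143 CPM. In OSS cells 8 genes of the vitelline membrane and eggshell list and 4 chorion genes passed the filter, and of these dec-1 was the one called. Of the lipoprotein and LDL receptor family genes 0 of 9 were called, with mgl, a relative of mammalian megalin, at 1084 ± 543 and 440 ± 249 CPM and LpR2 at 353 ± 113 and 482 ± 205. With the replicate block mgl was called higher (1.45, SE 0.30, adjusted p = 0.0291) and Sec5, of the exocyst, lower (−1.0, SE 0.24, 0.0420). siPiwi and siCi called 0 genes of any list.

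Wild-type ovaries exceeded siGFP OSS cells in all 4 members. In a joint fit of 6 wild-type ovary and 3 siGFP libraries the log2 fold change was 11.79 for Yp2 (SE 1.05, adjusted p = 8.68e-06 in edgeR), 11.15 for Yp1 (SE 1.24, 4.15e-05), 8.38 for Yp3 (SE 0.83, 1.81e-05) and 5.41 for yl (SE 0.40, 2.82e-06), with 23.9% of 11753 genes called higher in ovaries. The value of Yp1 rests on the 31 reads of siGFP 2: without it both remaining siGFP libraries held 0 reads, and the fitted 17.54 is then no bound. Per kb of exon yl had, beside Yp1, the lowest mean of the members in wild-type ovaries and the highest in siGFP cells, at 7.94 ± 1.77 CPM per kb (SD, n = 3), followed by Yp3 at 1.54 ± 1.13, Yp2 at 0.558 ± 0.477 and Yp1 at 0.110 ± 0.191.

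Genes around yolk uptake differed less between the tissues. Of the uptake list 1 of 16 was higher in ovaries, Rab7 of late endosomes (1.08, SE 0.31, adjusted p = 0.0146 in edgeR), and 1 lower, the clathrin light chain gene Clc (−1.02, SE 0.27, 0.00903). Of the regulators 1 of 13 was higher and 3 were lower, with dsx at −3.02 (SE 0.27), tra at −1.39 (SE 0.34), usp at −0.80 (SE 0.29) and tra2 at 1.71 (SE 0.50). Of all genes 19.5% were lower in ovaries, and the 3 regulators are near that share. Rfabg, Apoltp and Mtp were higher in ovaries and LpR2 lower (−1.05, SE 0.30), among 9 lipoprotein and LDL receptor family genes. In the vitelline membrane and eggshell list 11 of 12 genes were higher, as were 9 of 9 chorion genes. The exception was dec-1 (0.91, SE 0.72, adjusted p = 0.326 in edgeR).

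Reads on the opposite strand were examined after the levels had been seen. In ovaries antisense reads were at most 0.118% of the reads on Yp3 in any library. In OSS cells 1931 antisense and 870 sense reads fell on Yp3, an antisense share of 68.9%. More antisense than sense reads were found for 10.9% of the genes tested in OSS cells. The antisense share over the 12 OSS libraries was 43.6% for Yp1 (95 antisense and 123 sense reads), 31.9% for Yp2 and 2.82% for yl. Of the 421 antisense reads on yl, siPiwi 2 held 153 and siTj 2 held 157. Of the 210 on Yp2 these libraries held 64 and 79. CR45601 is annotated on the opposite strand of Yp1, and its part in the antisense reads there was not tested.

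Antisense reads of Yp3 were fewest after siTj. On the CPM scale of the sense libraries they were at 2.45, 2.26 and 2.79 after siTj and at 4.21, 9.16 and 8.30 in siGFP. The other 2 groups held 4.99 to 9.49, so that the siTj libraries lay below the 9 others, which held for 0.309% of the genes tested on that strand, and 1.43% lay below siGFP alone. Among antisense counts, scaled to the antisense libraries, the difference from siGFP was −1.74 (SE 0.93, adjusted p = 1 in edgeR) and with the replicate block −2.04 (SE 0.73, adjusted p = 0.846), with 0 of 8102 genes called in each. It was thus not past the threshold.

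**Figure D5:**
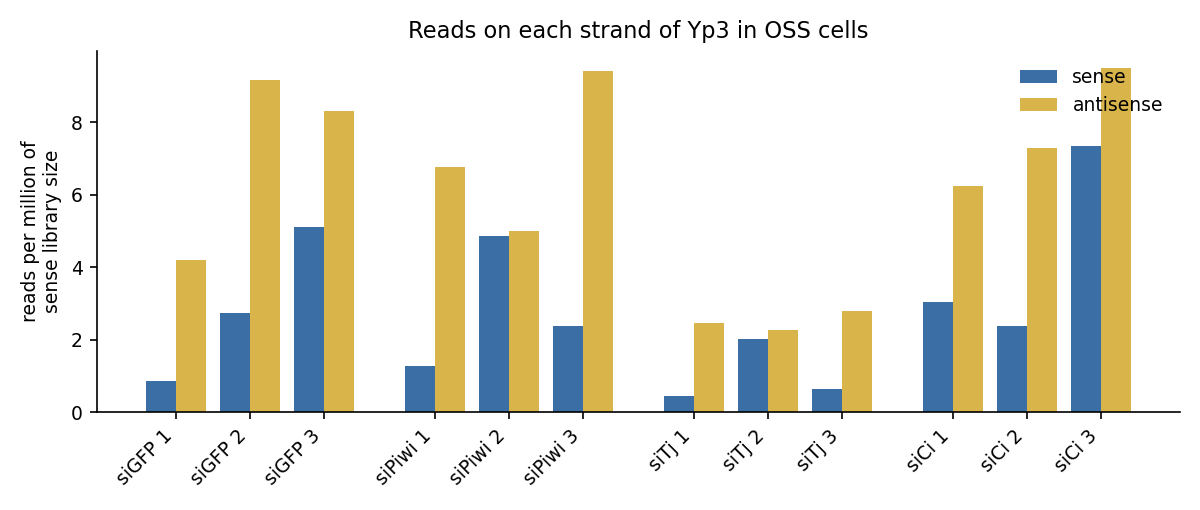
Sense and antisense reads of Yp3 on the CPM scale of the sense libraries in 12 OSS libraries, 1 pair of bars per library. Antisense reads outnumber sense reads in all 12 libraries and lie at 2.26 to 2.79 in the siTj libraries against 4.21 to 9.49 in the others.

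Chromatin data from OSS cells were set beside the members. The deposited list of TJ peaks held 1987 intervals of 500 bp, 369 of them on X. A single one lay at a member: it was centred at −151 bp from the Yp3 start, upstream of it, and overlapped the gene. No source used here names the genome build of the peak and summit files, which were read as the build of the gene tables. A peak centre within 500 bp of the start was found for 5.15% of the 16369 genes and for 7.25% of those tested in OSS cells. Relative to the starts, with upstream negative, the nearest centre was at −7.8 kb for Yp1, 6.7 kb for Yp2 and −49.3 kb for yl. Peaks were deposited as 1 list with no height, so binding in knockdown cells could not be compared.

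H3K9me3, a mark of silent chromatin, had Cut&Run summits inside Yp1 and Yp2 in all 4 deposited lists (labelled Plain 1, Plain 2, siGFP and siTj). Summit scores, the authors' −log10 q, were 33.2, 12.2, 23.2 and 1.62 in Yp1 and 51.7, 19.6, 24.3 and 2.5 in Yp2, in that order. A summit inside was found for 10.9%, 7.62%, 10.6% and 4.71% of all genes. The siTj list was also the shortest, with 8829 summits against 11124 to 16939, and there was 1 library per knockdown, so no difference is read from its scores. Yp3 held a summit in the Plain 1 list (score 6.17) and in none of the other 3, and yl held none, with the nearest between −22.5 and −30.98 kb from its start.

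H3K4me3, a mark of active promoters, had no summit inside a member or within 1 kb of a member's start in any of its 4 lists. Between 17.1% and 34.4% of all genes held one. The nearest to Yp3 lay at −2.06, −1.98 and −1.95 kb from its start in the Plain 1, Plain 2 and siGFP lists and at 23.3 kb in the siTj list, which held 3134 summits against 5949 to 6384. For yl the nearest was 7.09 to 8.58 kb downstream of the start, and for Yp1 it was 28.36 to 28.53 kb downstream.

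The members' profiles over libraries were compared with each other and with all genes of at least 5 CPM on average, by Pearson's r of log2(CPM + 1). These values are descriptions over 12 libraries that share lines, replicate numbers and depth. In ovaries r was 0.94 between Yp1 and Yp3, 0.88 between Yp1 and Yp2 and 0.76 between Yp2 and Yp3, while yl had −0.68, −0.37 and −0.82 with Yp1, Yp2 and Yp3. Both Flam mutants lay above the 10 other ovary libraries for Yp1 and Yp3 and below them for yl. Over all genes tested, 19.3% had both above and 18.7% both below. How far the ovary values of r rest on these mutants was not tested. In OSS cells Yp1 and Yp2 had 0.87 and the other pairs 0.29 to 0.54. Most like Yp1 in ovaries, among 8286 genes, were form3, CG5921, CG30269, CG30273 and sqa (0.96 to 0.97). Most like Yp2 were ND-B14, tok, pio, if and CG5065 (0.91 to 0.93), and most like Yp3 were dpy, CG8398, CG32694, Pdfr and CG13793 (0.95 to 0.97). Most like yl were BicC, CG45084, JhI-21, CG2034 and sud1 (0.98 to 0.99). CG30269 and CG30273 had the same values, as did BicC and CG45084, so each pair counts as 1 profile.

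In OSS cells, among 7412 genes, yl was most like CG43901 (0.91), stl, CG42673, Oatp30B and E23, and Yp3 most like sad (0.95), qtc, CG8292, E(spl)m3-HLH and CG9452. For Yp1 the closest were CG10208 (0.97), mira, nAChRalpha4, Myo81F and CG44422, and for Yp2 Sytbeta (0.93), peb, Oct-TyrR, dsx-c73A and CG14431. Both rest on few reads and on the siPiwi 2 library, in which Yp1 and Yp2 were highest. Yp3 also had few reads in some libraries, with 7 in siGFP 1.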

How the data were processed

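Per the file headers, the authors' gene tables give counts of unique reads for each gene, separately for its sense and antisense strand, with no normalization. Per the submitters' processing notes the authors used Bowtie2, DESeq2, FastQC and MACS2, with no version or role given here. Per the file layout, the deposited Cut&Run summit lists give a −log10 q per summit, against IgG per the file names, and the TJ peaks are positions only. Small RNA files were not used here.

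Sense counts per locus were tested with edgeR 4.0.16 in R 4.3.3 (filterByExpr, TMM, quasi-likelihood F test, Benjamini-Hochberg over all genes, threshold 0.05). An SE is the size of the log2 fold change over the square root of F. OSS groups shared 1 fit of 12 libraries. Ovary fits had the line as a block and estimated the spread over all 6 lines. Lines were grouped by their names in the labels. DESeq2 1.42.0 was an alternative. Deviations of same-number OSS libraries from their group means correlated in all 18 pairs (r 0.29 to 0.91, threshold 0.1), so the numbers were taken to pair the samples and a fit with the replicate block was set beside the other. The procedures were also run on simulated counts that held no line or replicate effects. Changes were set there only in genes above a minimum mean CPM, which Yp1, Yp2 and Yp3 in OSS cells do not reach. Those runs thus do not bear on the tests of these genes in OSS cells.

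The members and gene lists were chosen with earlier results of these data known. Genes named from a list passed the test, at most 4 per list and comparison by size of change. Where none passed, up to 2 of the highest mean CPM were named. Chc in the Flam-named lines and genes that mark other cells were named after their values were seen. apolpp was matched as Rfabg through the synonyms of a RefSeq gene table. The number of value columns from samples outside the series was 0. Intervals of counting error are not given, since reads carried no molecular identifiers.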

Additional observations from a re-analysis of the deposited data

Results flagged for a closer look

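The mutant effect of each member differed between the Flam-named lines and the FITS and FPSE lines by the test of the difference in edgeR. The differences on the log2 scale were 3.0 for Yp1, 1.93 for Yp2, 3.21 for Yp3 and −2.32 for yl. In this comparison 42.0% of all genes were called, so a call by itself does not set the members apart. The calls of Yp1 and Yp2 were lost under some of the alternatives given below.

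The FlamKG mutant stood apart from the other 5 mutants in Yp1, at 5431 CPM, with a gap to the next that passed Dixon's criterion for 6 values. Of the 16 groups checked, this was the only one to do so, and chance alone flags about 1 group in 20. The check took no account of the wild type of each line. Against it, the log2 ratio of the mutant for Yp1 was 3.14 in FlamKG and 3.0 in FlamBG.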

How the results depend on the processing

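Calls of Yp1, Yp3 and yl in the Flam-named lines kept their direction and their side of the threshold under every alternative run. The Yp2 effect in these lines lost its call with DESeq2 (1.72), without the line block (1.47) and on leaving out FlamBG (1.33) or FlamKG (1.83). The difference between line groups lost its call for Yp1 without the line block (3.09), and for Yp2 with DESeq2 (2.07), without the line block (1.82) and on leaving out FITS, FlamBG, FlamKG or FPSE2A (1.64 to 2.25 over all 6 lines left out). Values near 0 changed sign. For Yp3 after siPiwi these were 0.09 with median-ratio size factors, 0.08 with DESeq2, 0.04 with all positions and 0.03 with the replicate block, and leaving out a library gave −0.69 to 0.47. For yl after siPiwi they were −0.03 with no filter on low counts and −0.06 without siPiwi 2 and siTj 2, with −0.12 to 0.24 on leaving out a library. For yl after siCi the value was −0.05 with no filter, with −0.35 to 0.23 on leaving out a library, and Yp3 after siCi ranged from −0.28 to 1.37. On leaving out a line, Yp2 over all lines ranged from −0.01 to 0.65 in edgeR and from −0.02 to 0.66 as a mean log2 ratio. In FITS and the FPSE lines Yp1 ranged from −0.25 to 0.33, Yp2 from −0.66 to 0.01 and yl from −0.06 to 0.2. At a summit score of at least 10, lists with an H3K9me3 summit inside numbered 3 for Yp1, 3 for Yp2 and 0 for Yp3. The cause of these shifts was not tested. Genes called after siTj against siGFP numbered 5, and 377 with the replicate block, 210 with DESeq2, 9 with no filter, 8 on coding parts, 22 without siPiwi 2 and siTj 2, and 1 with median-ratio size factors, with all positions or with only the compared groups. Leaving out a library without the block gave 0 to 2. Those of siTj against siPiwi numbered 0, 79 with DESeq2 and 73 with the block, and against siCi 1, 104 and 156. The Flam-named lines had 6193 calls, 3114 without the line block and 4062 without FlamKG, and the difference between line groups 4688, 1563 and 2844. The replicate block changed the call of no member. Depth limits Yp1 and Yp2 in OSS cells, at 0 to 114 reads a library. It limits Yp3 there as well, with 7 reads in siGFP 1, 8 in siTj 1 and 9 in siTj 3.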
